A study of Mus musculus with 2 samples.

Results

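The 10 genes described here encode transcription factors of the gastric and foregut epithelium: Sox2, the GATA factors Gata4, Gata5 and Gata6, the forkhead factors Foxa1, Foxa2, Foxa3 and Foxq1, the ETS factor Spdef and the homeobox factor Pdx1. They were taken by gene symbol from the 38087 Ensembl genes of the deposited tables, and all 10 were found. RNA came from sorted stomach cells of C57BL/6 mice that the labels call parietal, the cell type that secretes gastric acid. One group of mice was kept on a high fat diet (HFD) and the other served as its control, with 1 library each. The sources used here do not give the age of the mice, their number per library, the length of the diet or the sorting markers. With 1 library per diet there was no replicate check and no test of diet: every difference below is between these 2 libraries.

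Gastric identity is set up in the embryonic foregut, where SOX2 marks the future stomach against the intestine. FOXA proteins are pioneer factors that bind closed chromatin in endoderm, and GATA factors act with them; GATA sites lie in the promoters of the proton pump genes of parietal cells. In the adult stomach the remaining factors are tied to mucous and antral cells: FOXQ1 is needed for Muc5ac expression in surface mucous (pit) cells, SPDEF for mucous gland cells of the antrum, and PDX1 marks the antrum, duodenum and pancreas.

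Because these factors are known to bind each other's genes, the sequence before the transcription start was searched for short forms of their motifs. Entries of the RefSeq promoter table (GRCm38.p6) were used for 7 of the 10 genes, with 9 start sites in all. The promoters of Gata4, Gata6 and Foxq1 were not searched, so the matches below say nothing about these genes. The 250 bases before each start were searched on both strands for the GATA motif AGATAA, the forkhead motif TGTTTAC, the SOX motif CATTGT, the homeobox motif TAATTA and the SPDEF motif CCGGAT; no match overlapped another. The first stood in 9.99% of all 32851 entries, the second in 3.17%, and the other motifs in 10.7%, 4.84% and 4.94%. Among the 9 entries there was 1 match to TGTTTAC, before Foxa1, and 1 to AGATAA, before 1 of the 3 starts of Foxa2. A match describes letters only, and the remaining entries hold none of these motifs in this window. The 2 entries with a match are shown with that of Spdef, which has none and had the highest HFD over control ratio of the 8 more abundant factors. Each run gives the first 200 of the 250 bases, 5′ to 3′ on the gene's strand, with the match in capitals (in Foxa1 it lies on the reverse strand, as GTAAACA).
Foxa1, chr12:57546162-57546361, minus strand: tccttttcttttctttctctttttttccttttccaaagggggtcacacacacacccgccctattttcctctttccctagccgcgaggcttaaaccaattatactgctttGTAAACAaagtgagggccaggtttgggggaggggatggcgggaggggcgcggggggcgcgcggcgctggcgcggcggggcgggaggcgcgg
Foxa2, chr2:148045515-148045714, minus strand: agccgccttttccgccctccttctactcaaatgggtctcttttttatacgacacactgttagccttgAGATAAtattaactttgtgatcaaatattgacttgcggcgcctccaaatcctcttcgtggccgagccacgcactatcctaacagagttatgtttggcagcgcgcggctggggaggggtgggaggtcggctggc
Spdef, chr17:27729002-27729201, minus strand: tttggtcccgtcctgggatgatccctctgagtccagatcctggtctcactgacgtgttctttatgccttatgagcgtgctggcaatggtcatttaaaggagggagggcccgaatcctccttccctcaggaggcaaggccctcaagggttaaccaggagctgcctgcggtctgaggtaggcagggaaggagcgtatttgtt
In GENCODE M21 none of the bases shown is exonic for its own gene. The Foxa1 and Foxa2 windows lie inside the gene's span, between exons of longer transcripts, and the Spdef window lies before the gene. The Foxa1 match spans bases 141 to 135 before the start and the Foxa2 match bases 183 to 178.

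Levels were deposited as log2 of RPKM (the reads of a gene divided by its length in kb and by the library's depth in M reads), with genes at or below 1 RPKM listed as 0. The spacing of the lowest values gave a depth of 25.5 M reads for HFD and 9.84 M for control. Pairs of values are given with HFD first. All 10 markers of parietal cells were listed in both libraries, but markers of other cells were abundant too. The summed level was 36056 RPKM against 14515 for 5 pit cell markers, 48186 against 106338 for 5 chief cell markers (Lipf at 0 in both) and 11551 against 9508 for the parietal markers. The part of these cells in the values below was not tested, and fewer cells of a type cannot be told apart from less RNA per cell.

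All 10 factors stood above the floor of 1 RPKM in both libraries, and the order of their levels was much the same. Gata4 was the most abundant, 8 factors lay above 17 RPKM in both, and Sox2 and Pdx1 were the lowest pair. From the top, the HFD library ran Gata4, Spdef, Foxa1, Gata6, Foxq1, Foxa3, Foxa2, Gata5, Sox2 and Pdx1. In the control library Foxq1 stood at place 2 in place of 5 and Spdef at place 4 in place of 2; Gata6 stood at place 5 in place of 4, and the other 7 held the same place. Intervals given here are approximate 95% intervals from estimated reads and cover counting error only. They overlapped between neighbours for Gata6 and Foxq1, Foxa3 and Foxa2, and Foxa2 and Gata5 in the HFD library, and for Foxa1 and Spdef and for Foxa2 and Gata5 in the control library. Among 11976 protein-coding genes listed in either library, Gata4 lay above 97.0% with HFD and 97.8% in the control, and Sox2 above 47.7% and 43.7%. Genes listed at 0 count as lower here, 1491 with HFD and 488 in the control.

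**Figure D1:**
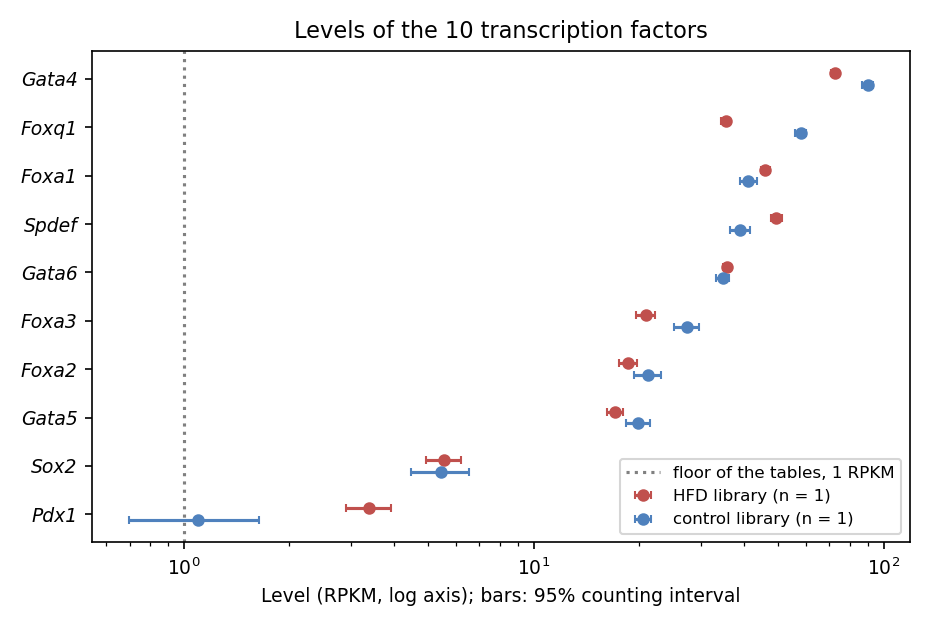
Level of each factor (RPKM, log axis) in the HFD and the control library, 1 library each, with bars for the 95% counting interval and a dotted line at the floor of 1 RPKM. Gata4 is highest at 72.4 and 89.9 RPKM; the libraries stand farthest apart for Foxq1 (35.4 against 57.9 RPKM) and Pdx1 (3.38 against 1.10 RPKM).

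Between the libraries most factors differed little. Of the 10, 5 were higher and 5 lower with HFD, where 47.8% of the 9997 protein-coding genes listed in both libraries were at or above a ratio of 1. The median difference was -0.08 on the log2(RPKM + 1) scale, against -0.13 over all 16037 genes listed in either library. Only Pdx1 passed 2-fold, in the higher direction, as did 12.5% of all genes listed in either library. No factor passed 2-fold in the lower direction, as did 23.9% of all genes, which include genes listed in 1 library alone. Of the 16037, 2606 were listed in the control library alone and 992 in the HFD library alone. Of 8925 protein-coding genes listed in both and at levels within the range of the factors, 431 passed 2-fold higher and 884 lower. Their median difference was -0.03. For 8 of the 10 factors the ratio lay between 1/1.5 and 1.5, which held for 57% of the 9997 protein-coding genes listed in both. The interval of the ratio held 1 for 2 factors, Gata6 and Sox2, and for 20.2% of those genes. The median size of the log2 ratio, whatever its sign, was 0.27 for the factors and 0.50 for protein-coding genes listed in both.

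The scaling of the values decides several of these directions. When each library was set to its total without the 20 most abundant genes, the HFD values shifted by -0.60 on the log2 scale, the median of all listed genes was -0.63 and only Pdx1 of the 10 remained higher. When set to the total of protein-coding genes the shift was 0.29 and 7 of the 10 were higher. Of the 9997 protein-coding genes listed in both libraries, 1789 were higher under the first of these scalings and 6332 under the second. Over all listed genes the counts past 2-fold were 2000 higher and 3833 lower as deposited, and 1103 and 5641 without the 20 most abundant genes. Foxq1, Foxa3 and Gata4 were lower and Pdx1 higher under each of the 4 other scalings. The other 6 changed direction under 1 of these scalings. Scaled to protein-coding genes, Gata4 at 0.987 and Foxa3 at 0.935 were close to 1. Ratios between 2 factors of the same library do not depend on scaling and are therefore given beside the ratios between libraries.

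**Figure D2:**
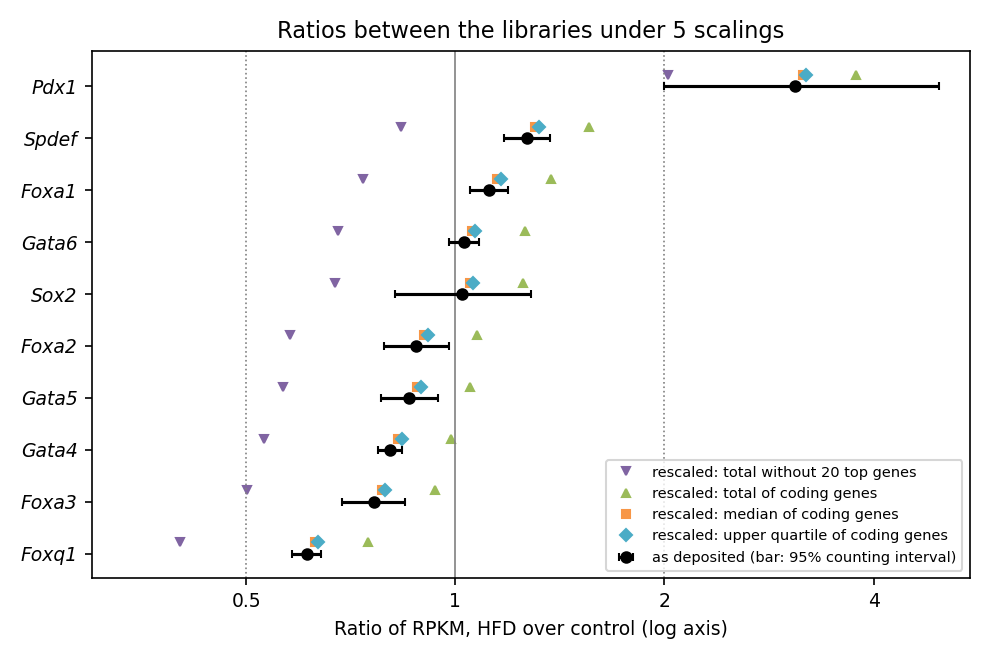
Ratio of RPKM, HFD over control (log axis), for each factor as deposited (black, bar: 95% counting interval) and after 4 rescalings (coloured); the solid line marks 1 and the dotted lines 2-fold either way. Foxq1 lies left of 1 under all 5 scalings (0.402 to 0.749) and Pdx1 right of 1 (2.02 to 3.77), while factors such as Sox2 (0.672 to 1.25) fall on both sides.

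Sox2, the factor that marks foregut against hindgut, stood at 5.54 RPKM with HFD and 5.42 RPKM in the control. The ratio of 1.02 had a counting interval of 0.818 to 1.29, so a difference was not detectable at this depth. Ratio and interval rested on few reads, about 291 estimated for HFD and 110 for control at the exon length of 2057 bases. Gene lengths of 200 to 10000 bases were also searched for whole numbers of reads. The shortest that gave them in both libraries was 2457 bases, with 347 reads for HFD and 131 for control. The Sox2 gene (ENSMUSG00000074637, chromosome 3, 34650405 to 34652461, mm10) lies within the long noncoding gene Sox2ot, which was not analysed here.

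Among the GATA factors, zinc finger proteins that bind GATA motifs, Gata4 led in both libraries, at 72.4 RPKM with HFD and 89.9 RPKM in the control. Its ratio was 0.805 (0.773 to 0.839), and 0.987 when scaled to protein-coding genes. Gata6, which overlaps with GATA4 in the gastric epithelium, stood at 35.7 against 34.7 RPKM, a ratio of 1.03 (interval 0.980 to 1.08). Gata5, the third GATA gene of endoderm, stood at 17.0 against 19.9 RPKM, a ratio of 0.858 (interval 0.781 to 0.943). Gata4 and Gata5 were thus lower as deposited and Gata6 level, and Gata5 turned to 1.05 when scaled to protein-coding genes.

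The make-up of the GATA group differed by more than counting error. Gata4 held 57.9% of the summed GATA RPKM with HFD and 62.3% in the control, Gata6 28.5% and 24.0%, and Gata5 13.6% and 13.7%. Gata4 stood at 2.03 times Gata6 with HFD and at 2.60 times Gata6 in the control; the first of these ratios was 0.783 times the second (0.734 to 0.834). Between Gata4 and Gata5 the same measure was 0.939 (0.847 to 1.04), an interval that holds 1. Genes on the other strand overlap this family: the noncoding gene 1010001N08Rik, which overlaps Gata6 on the other strand, stood at 33.6 against 16.8 RPKM, and Gata5os, opposite Gata5, was at 0 with HFD and at 1.54 RPKM in the control library. The sources used here do not say whether reads were counted by strand, so reads of a gene and its antisense partner may be mixed.

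The 3 FOXA genes were all expressed, with Foxa1 highest. Foxa1 stood at 45.9 RPKM with HFD and 41.1 RPKM in the control, a ratio of 1.12 (interval 1.05 to 1.19) that was 0.736 without the 20 most abundant genes. Foxa2 stood at 18.6 against 21.2 RPKM, a ratio of 0.878 (interval 0.789 to 0.978) that was 1.08 when scaled to protein-coding genes. Foxa3, which is expressed in endoderm later in development than the other FOXA genes, stood at 20.9 against 27.4 RPKM, a ratio of 0.763 (interval 0.687 to 0.847). Foxa1 and Foxa3 thus went opposite ways as deposited.

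Within the FOXA group Foxa1 took a larger share with HFD. It held 53.8% of the summed FOXA RPKM there and 45.8% in the control, while Foxa3 held 24.4% and 30.5% and Foxa2 21.8% and 23.7%. The ratio of Foxa1 to Foxa3 was 2.20 with HFD and 1.5 in the control, 1.47 times apart (1.30 to 1.65). The ratio of Foxa1 to Foxa2 was 2.47 and 1.94, 1.27 times apart (1.12 to 1.44). For Foxa2 and Foxa3 the interval held 1 (0.991 to 1.34 around 1.15). The promoter of Foxa1 shown above holds a forkhead motif; the Foxa2 entry shown holds a GATA motif.

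**Figure D3:**
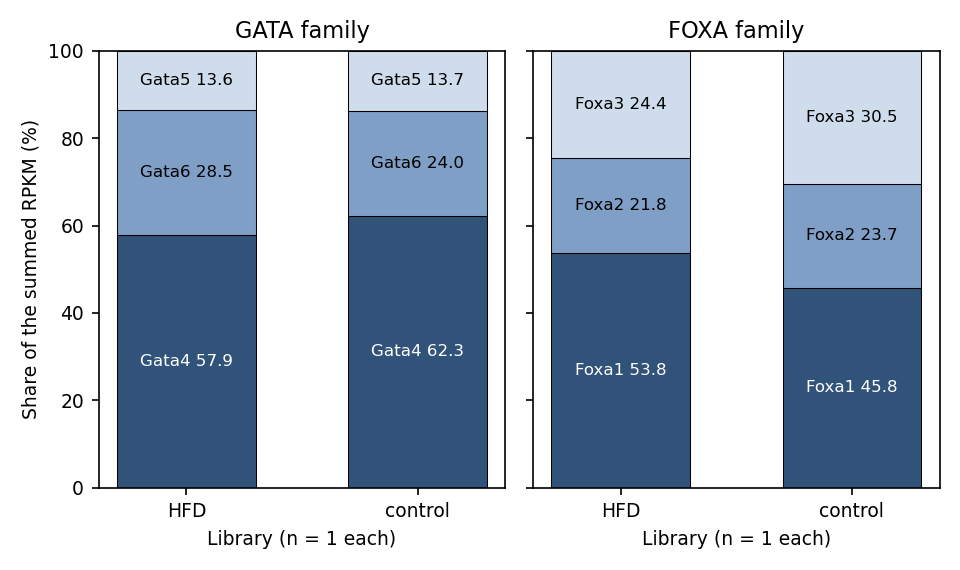
Share of the summed RPKM (%) held by each gene of the GATA and the FOXA family in the HFD and the control library, 1 library each, as stacked bars. Foxa1 holds 53.8% of the FOXA sum with HFD and 45.8% in the control, and Gata4 57.9% and 62.3% of the GATA sum.

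Foxq1 and Spdef, the factors of mucous cells, went in opposite directions as deposited, though both were lower without the 20 most abundant genes. Foxq1 (ENSMUSG00000038415, chromosome 13, 31556134 to 31560976, a gene of 1 exon) stood at 35.4 RPKM with HFD and 57.9 RPKM in the control. The control level was 1.64 times the HFD level (1.56 to 1.72). Without the 20 most abundant genes in the total, the ratio of HFD to control was 0.402, and Foxq1 passed 2-fold. Spdef (ENSMUSG00000024215, chromosome 17, 27714352 to 27728955) stood at 49.3 against 38.8 RPKM, a ratio of 1.27 (interval 1.18 to 1.37), which was 0.835 without the 20 most abundant genes. The ratio of Foxq1 to Spdef was 0.719 with HFD and 1.49 in the control, so that the order of the pair turned; the first was 0.482 times the second (0.440 to 0.527). Against each of the other 9 factors Foxq1 was relatively lower in the HFD library, with every interval excluding 1; the closest was Foxa3, for which the ratio to Foxq1 was 1.25 times the control value (1.11 to 1.40).

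Most of the pit cell markers did not share the direction of Foxq1 as deposited. Of 5 pit cell markers, 4 were higher in the HFD library as deposited and 2 without the 20 most abundant genes. Muc5ac, the surface mucin whose expression needs FOXQ1, stood at 538 against 411 RPKM, a ratio of 1.31 (interval 1.30 to 1.32), which turned below 1 without the 20 most abundant genes. Gkn1, a secreted protein of pit cells, stood at 21736 against 5021 RPKM. Gkn2 stood at 8091 against 3406 RPKM, while Tff1 (ratio 0.986) and Psca (ratio 1.02) were nearly level. Foxq1 was thus lower in the library with the higher summed level of pit cell markers, a sum in which Gkn1 and Gkn2 differed most. The gene on the other strand of Foxq1, A530084C06Rik, was listed at 0 in both libraries.

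Pdx1 (ENSMUSG00000029644, chromosome 5, 147269959 to 147275848) had the highest ratio of the 10 and the lowest level. It stood at 3.38 RPKM with HFD and 1.10 RPKM in the control, just above the floor of the tables. The ratio was 3.08 (interval 1.99 to 4.96), from about 186 and 23.3 estimated reads. On the log2(RPKM + 1) scale, which understates low genes, the difference was 1.06, close to the threshold of 1, and it did not pass that threshold when scaled without the 20 most abundant genes. Among protein-coding genes Pdx1 lay above 34.2% with HFD and 5.49% in the control. These shares include genes listed at 0, of which there were more with HFD (1491 against 488). The whole interval lay above 2 for 4.07% of protein-coding genes listed in both, and Pdx1 was not among these.

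Genes of the pancreas did not share the direction of Pdx1, while Gast did as deposited. Gast, the gastrin gene of antral G cells, stood at 119 against 102 RPKM, a ratio of 1.16 (interval 1.04 to 1.29). It was the only 1 of the 6 endocrine cell markers that was higher, and 5 were lower. All 8 marker genes of pancreatic acinar cells were listed in the control library, with a summed level of 549 RPKM; in the HFD library Cel alone was listed, and the sum was 6.66 RPKM. The acinar cell factors Ptf1a and Rbpjl were likewise listed in the control library alone, at 3.64 and 4.92 RPKM. The intestinal factors Cdx1 and Cdx2 were listed at 0 in both. Plut, a noncoding gene that overlaps Pdx1 on the other strand, stood at 1.00 RPKM with HFD and 2.07 RPKM in the control. Pdx1 was therefore higher in the library where pancreatic enzymes and Plut were lower; the part of pancreatic or antral cells in its level was not tested.

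Across the wider set of factors, those of gastric epithelium had a median near 0 and those of other lineages were low or listed at 0. Of 24 other gastric and foregut epithelium factors 21 were listed in either library; 19 were listed in both, 9 of them higher and 10 lower in the HFD library as deposited. Their median was -0.05 on the log2(RPKM + 1) scale, and 1 of the 19 was higher without the 20 most abundant genes. Elf3, an ETS factor of epithelia, stood at 149 against 159 RPKM. Xbp1, a factor of secretory cells, stood at 147 against 102 RPKM and Klf4, a factor of surface epithelium, at 114 against 79.1 RPKM. Esrrg, a nuclear receptor of parietal cells, had the highest ratio at 1.52 (67.3 against 44.2 RPKM), and Runx1 the lowest at 0.511 (4.41 against 8.62 RPKM). The 2 past 2-fold in the list, Nkx6-2 and Barx1, were listed at 0 in the HFD library, against 8.43 and 2.90 RPKM in the control library. Barx1 is a factor of the stomach mesenchyme.

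Of a list of 19 other GATA, FOX and SOX genes, which leaves out Sox9 and Sox21 of the epithelial list, 8 were listed at 0 in both libraries and 4 were listed in both, all 4 lower in the HFD library as deposited and 2 of them higher when scaled to protein-coding genes. Sox4, a factor of progenitor cells, stood at 5.72 against 9.96 RPKM, Foxo3, a stress factor restrained by insulin signalling, at 7.98 against 12.3 RPKM and Foxp1 at 7.48 against 8.15 RPKM. Foxm1, a factor of dividing cells, was at 0 with HFD and at 8.50 RPKM in the control library. Gata1 and Gata3, of blood cells, were listed at 0 in both, so that the GATA signal of these libraries lay almost wholly with the 3 endodermal genes. The exception was Gata2, listed at 2.19 RPKM with HFD and at 0 in the control. Foxf1 and Foxf2, factors of gut mesenchyme, were listed in the control library alone, at 3.07 and 2.68 RPKM. That held for 2606 of all 16037 genes listed in either library, against 992 in the HFD library alone. Summed levels were 24.0 against 167 RPKM over 5 smooth muscle markers and 42.5 against 118 RPKM over 6 fibroblast markers, of which Pdgfra and Lum were at 0 with HFD; their part in the levels of Foxf1, Foxf2 and Barx1 was not tested.

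Endocrine lineage factors were scarce. Of 12, 5 were listed at 0 in both libraries, 4 in the control library alone and 2 in the HFD library alone, among them Neurod1 at 1.01 RPKM. Among all 16037 genes listed in either library, 2606 were in the control library alone and 992 in the HFD library alone. Isl1, a factor of endocrine cells and of mesenchyme, was the single one listed in both, at 4.08 against 7.43 RPKM. The summed level of the 6 endocrine cell markers was 1211 RPKM with HFD and 8296 RPKM in the control. The 3 factors of the intestinal and pancreatic list that were listed at all were in the control library alone (Mnx1 at 1.41 RPKM beside Ptf1a and Rbpjl).

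Partners of the 10 factors were mostly level. Zfpm1, also called FOG1, a cofactor of GATA proteins, was the most abundant of 14 cofactors at 60.4 against 48.9 RPKM, a ratio of 1.24 (interval 1.17 to 1.31), while its relative Zfpm2 was listed at 0 in both. Of the 12 cofactors listed in both libraries 8 were higher as deposited and 1 without the 20 most abundant genes. The acetyltransferase gene Crebbp stood at 12.4 against 11.5 RPKM and the corepressor gene Tle3 at 8.85 against 10.1 RPKM. Ratios ran from 0.412 for the histone deacetylase gene Hdac2 (3.11 against 7.56 RPKM) to 1.57 for Tle1.

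**Figure D4:**
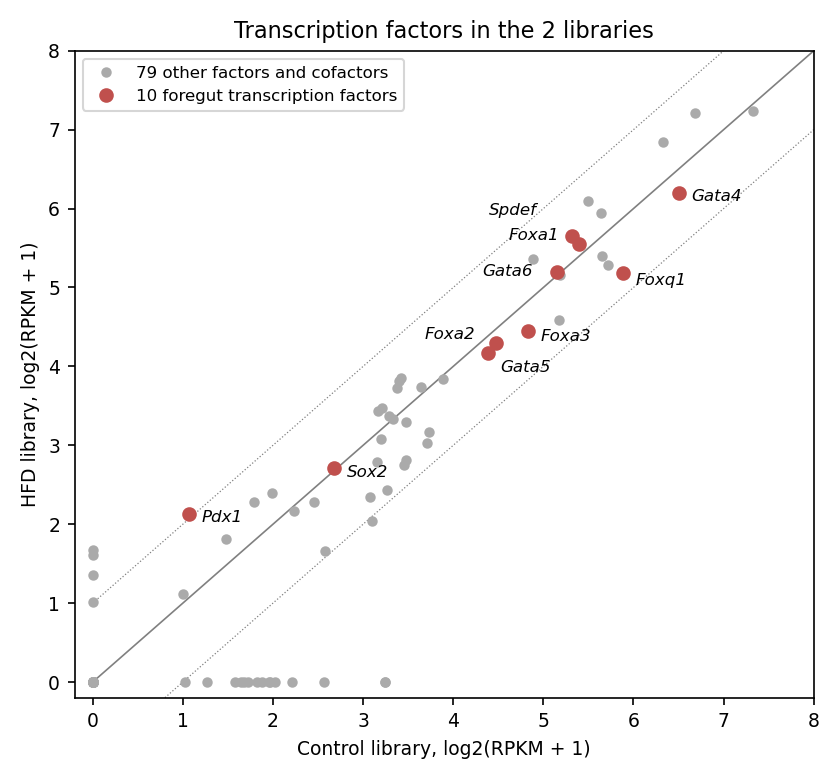
Level in the HFD library against level in the control library, both as log2(RPKM + 1), for the 10 factors (red) and 79 other factors and cofactors (grey); the solid line marks equal levels and the dotted lines 2-fold. Pdx1 lies past the upper dotted line and the other 9 between the dotted lines; grey points along the axes are listed at 0 in 1 library or, at the origin, in both.

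Products of the gastric epithelium, several of which depend on these factors, spread more widely than the factors by median size of log2 ratio. By that measure alone they spread less widely than protein-coding genes at large. All 15 genes of that list were listed in both libraries, 7 higher and 8 lower as deposited, with 3 past 2-fold in each direction. Of all genes listed in either library, 12.5% passed 2-fold higher and 23.9% lower. Of 11976 protein-coding genes listed in either library, 961 passed 2-fold higher and 2404 lower. By counts past 2-fold the 15 genes thus did not spread less widely. The median log2(RPKM + 1) difference of the 15 genes was -0.02. The median size of their log2 ratio was 0.37, against 0.27 for the factors and 0.50 for protein-coding genes listed in both libraries. The proton pump genes Atp4a and Atp4b have GATA sites in their promoters. They stood at 4997 against 4324 and 5639 against 4375 RPKM, ratios of 1.16 and 1.29. Ratios of the GATA factors were 0.805 for Gata4, 1.03 for Gata6 and 0.858 for Gata5. Without the 20 most abundant genes in the total, both pump genes were lower with HFD, and 3 of the 15 genes were higher. The widest ratios were 4.33 for Gkn1 and 0.120 for Ghrl, the ghrelin gene of endocrine cells (707 against 5913 RPKM). Shh, the hedgehog ligand of gastric glands, stood at 7.01 against 2.30 RPKM, a ratio of 3.05 (interval 2.35 to 4.02). Pgc of chief cells and Tff2 of neck cells had ratios of 0.446 and 0.881.

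By distance over log2(RPKM + 1) in the 2 libraries, the factors nearest to each of the 10 among the 79 were as follows. Hnf4a, a nuclear receptor of endoderm, lay nearest to Gata6 at a distance of 0.05 (34.7 against 35.4 RPKM). Creb3l1, a factor of the secretory pathway, lay nearest to Foxq1 (0.19) and Klf5, a factor of epithelial growth, nearest to Foxa1 (0.30) and Spdef (0.42). Sox9, a factor of gland progenitors, lay nearest to Foxa3 (0.38), Foxo1 nearest to Sox2 (0.48), Sox21 nearest to Gata5 (0.60) and Foxa2 (0.74), and Klf4 nearest to Gata4 (0.67). Pou2f1 lay nearest to Pdx1 (0.51) and, unlike it, kept within 2-fold (2.52 against 1.78 RPKM). Likeness over 2 libraries reflects little more than a similar level.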

How the data were processed

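RNA was measured in 1 HFD and 1 control library of sorted cells; per the labels' protocols, ribosomal RNA was removed and libraries were made with an Ion Total RNA-Seq kit. Bedtools 2.25.0 and mm10 appear in the submitters' processing notes; the sources used here give no aligner, counting rule or annotation release. The deposited column is headed RPKM, and its values were read as log2 of RPKM, per the file headers and the range of the values (largest 18.2, no listed gene at or below 1 RPKM). Symbols, positions and exon lengths came from GENCODE M21 on GRCm38 (mm10): 36308 identifiers matched and 1779 did not.

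Ratios are of RPKM, HFD over control. Differences across all genes use a pseudocount of 1 RPKM with listed zeros as 0 and a threshold of 2-fold. Depth came from the spacing of values of single-exon genes (50% of 180 low values and 35.2% of 707 lay within 0.005 of a whole step, where uniform values would give 1%). Estimated reads are the product of RPKM, exon length and depth. Intervals are exact 95% intervals (Poisson for levels, conditional binomial for ratios between libraries, conditional odds ratio for the 45 pairs of factors, of which 34 excluded 1). They cover counting error only, and reads lack molecular identifiers. The intervals are also approximate: the shortest length searched at which Sox2 gave whole reads was 2457 bases, against 2057 in GENCODE M21. Alternatives changed the entry of zeros, the pseudocount, the minimum, the scaling and the transcript length. Calculations were tested on simulated data with Python 3.11.15 and SciPy 1.17.1.

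All 10 factors are named. Of 6 further lists the rule named up to 4 genes with the top mean levels and the genes at either end of the ratios, besides genes overlapping a factor and the nearest factors. Genes that make up a small count (Nkx6-2, Barx1, Neurod1, Gata2, Mnx1, Foxf1, Foxf2, Pdgfra, Lum), and Muc5ac, Gkn2, Tff1, Psca, Gast, Shh, Cel, Atp4a, Cdx1, Cdx2, Gata1, Gata3 and Zfpm2, were chosen after their values were seen. Some genes of these lists enter the counts and are not reported here by name. The factors and lists were chosen with earlier results of these data known. The comparison of ratios without a pseudocount was added after seeing the data.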

Additional observations from a re-analysis of the deposited data

How the results depend on the processing

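The count of factors past 2-fold higher was 1 as deposited and 0 with a minimum of 5 RPKM, which leaves Pdx1 out, and 0 without the 20 most abundant genes in the total; the count past 2-fold lower was then 1 (Foxq1). The median over the 10 factors was -0.64 under that scaling and 0.19 scaled to protein-coding genes, against -0.08. The totals of genes behind the counts past 2-fold over all genes differed. As deposited, 2000 were higher and 3833 lower of 16037. With the minimum of 5 RPKM, 1092 were higher and 1393 lower of 9901. Without the 20 most abundant genes, 1103 of 16037 were higher. By the ratio without a pseudocount, 1319 were higher and 1633 lower of 12439 genes listed in both libraries. The cause was not tested beyond what each alternative leaves out. Of 79 values of single factors under these alternatives, 61 stayed within the counting interval of the ratio restated with a pseudocount of 1 RPKM. Values with a minimum of 5 RPKM or with none are among these 61. They could not move, because a minimum leaves a factor's own ratio unchanged. The other 18 moved out of the interval. Pdx1 was 1 of them, at 1.62 on the log2 scale when zeros were entered as 1 RPKM with no pseudocount, against 1.06. All the rest came from the following changes of scaling. Dropping the 20 top genes from the library sum moved every factor except Pdx1. Scaling to protein-coding genes moved every factor except Pdx1 and Sox2. Pdx1, the called factor, kept its direction in each alternative that included it. Using the longest transcript in place of all exons moved the bounds of the ratio little (Gata6, 0.965 to 1.10). No paired analysis was possible because each diet had 1 library, and leaving a library out was not possible for the same reason. Depth limits Pdx1 and Sox2 most: at 2 kb and 1 RPKM a gene rests on 51.0 reads with HFD and 19.7 in the control.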
